A study of Sus scrofa with 6 samples.

Results

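WDR47 is a protein with WD repeats that carries LisH and CTLH domains at its start, and it was studied here together with 8 genes of the microtubule minus-end and LIS1 network. These are CAMSAP1, CAMSAP2, CAMSAP3, KATNA1, PAFAH1B1, NDE1, NDEL1 and MAP1B. WDR47 was chosen by its measured values, namely its high abundance in NC embryos and its much lower abundance in KD embryos, while the 8 others were taken for what they are known to do beside it. All 9 were found by gene name among the 17678 genes of the deposited table.

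The NC embryos were porcine oocytes injected at the MII stage with a non-specific siRNA, and the KD embryos were injected with siRNAs made against SIN3A, the scaffold of the SIN3/HDAC corepressor complex. Oocytes of both groups came from slaughterhouse ovaries of Landrace, Yorkshire and Duroc crossbreeds, were matured in vitro and were activated parthenogenetically, so every embryo lacked a paternal genome. Embryos were taken at 32 h, at the 2-cell stage, in 3 replicates per group with 20 embryos pooled in each. Polyadenylated RNA was sequenced, and since each library is a pool, fewer embryos holding a transcript and less of it in every embryo cannot be told apart. Tail length, which the paper discusses for CCNB1 mRNA, was not measured. A lower abundance is therefore not shown to be a loss of the transcript.

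Microtubules are polar filaments whose minus ends have to be capped, anchored or protected. CAMSAP proteins bind free minus ends and hold stretches of stable microtubule there, away from the centrosome. In neurons and ciliated cells WDR47 is known to bind CAMSAP proteins and to protect these microtubules from severing by katanin. PAFAH1B1 encodes LIS1, which with NDE1 or NDEL1 activates the minus-end directed motor dynein, and MAP1B binds the microtubule lattice.

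All values are abundances per gene that the authors normalized between libraries. They are not divided by transcript length, so that levels of different genes are compared only after division by the length of the longest RefSeq mRNA, given as abundance per kb. The depth was estimated from the most frequent value of each library, at 7800000 to 15800000 reads per library. The number of reads assumed for that value was not checked, and the read numbers scale with it. At this depth a library held an estimated 1760 to 7796 reads of WDR47 but 31 to 67 of CAMSAP2 and 87 to 147 of KATNA1. The targeted gene SIN3A stood at 32404 to 37361 in NC and 1079 to 4173 in KD embryos. Oocyte and embryo markers were high as a sum in all 6 libraries, with a summed abundance of the 11 found of 39063 to 42704 in NC and 39698 to 45157 in KD. BMP15 alone stood at 19476 to 24182, while NPM2 stood at 401 to 510. The 12 cumulus and granulosa markers found summed to 816 to 966 in NC and 785 to 907 in KD, and nearly all of this was VCAN, at 735 to 925. Of the 12, 3 reached a mean of 10, VCAN among them, with log2 differences of KD minus NC from -0.66 to 0.43 and 0 called. Among those below it, PTX3 was at 0 to 2.21 and TNFAIP6 at 0 to 1.63, and AMHR2 was at 0 in 5 of the 6.

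WDR47 (ENSSSCG00000006840) lies at chr4:111006338-111076924 of Sscrofa11.1 on the plus strand. RefSeq lists 5 mRNAs, and the longest has 15 exons and 4803 bases, 2790 of them coding.

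WDR47 stood at 8111, 7076 and 6393 in NC replicates 1 to 3. It stood at 1858, 1261 and 2751 in KD replicates 1 to 3. All 3 KD libraries lay far below the lowest NC library, so the groups did not overlap. NC embryos averaged 7193 ± 865 and KD embryos 1956 ± 750 (SD over 3 libraries each), so that the KD mean was 27.2% of the NC mean. On the log2(value + 1) scale the difference of KD minus NC was -1.94, with an SD between replicates of 0.17 in NC and 0.56 in KD. These values chose the gene, and so no test is given for them.

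The transcript was abundant in NC embryos. By normalized abundance it ranked 197 of 17678 genes in NC embryos and 1330 in KD embryos. Of 2440 tested genes with an NC mean of at least 1000, only SIN3A and CCNB1 were further below NC on the log2 scale than WDR47, SIN3A at -3.81 and CCNB1, which encodes cyclin B1, at -2.37. The next in that order was CNOT6, a subunit of a deadenylase complex, at -1.14. As these values chose WDR47, its place in this order is a description only. The cutoff of 1000 was not among the planned settings.

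The spread of WDR47 was uneven between groups. Its coefficient of variation was 12.0% in NC and 38.3% in KD embryos. KD replicate 2 stood at 17.5% of the NC mean, KD replicate 1 at 25.8% and KD replicate 3 at 38.2%. SIN3A stood at 3.12% of its NC mean in KD replicate 2, 9.46% in replicate 1 and 12.1% in replicate 3. CCNB1 stood at 11.4% of its NC mean in KD replicate 2, 24.7% in replicate 1 and 25.4% in replicate 3. All 3 transcripts were lowest in KD replicate 2 and highest in KD replicate 3, which with 3 libraries is a description only.

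**Figure D1:**
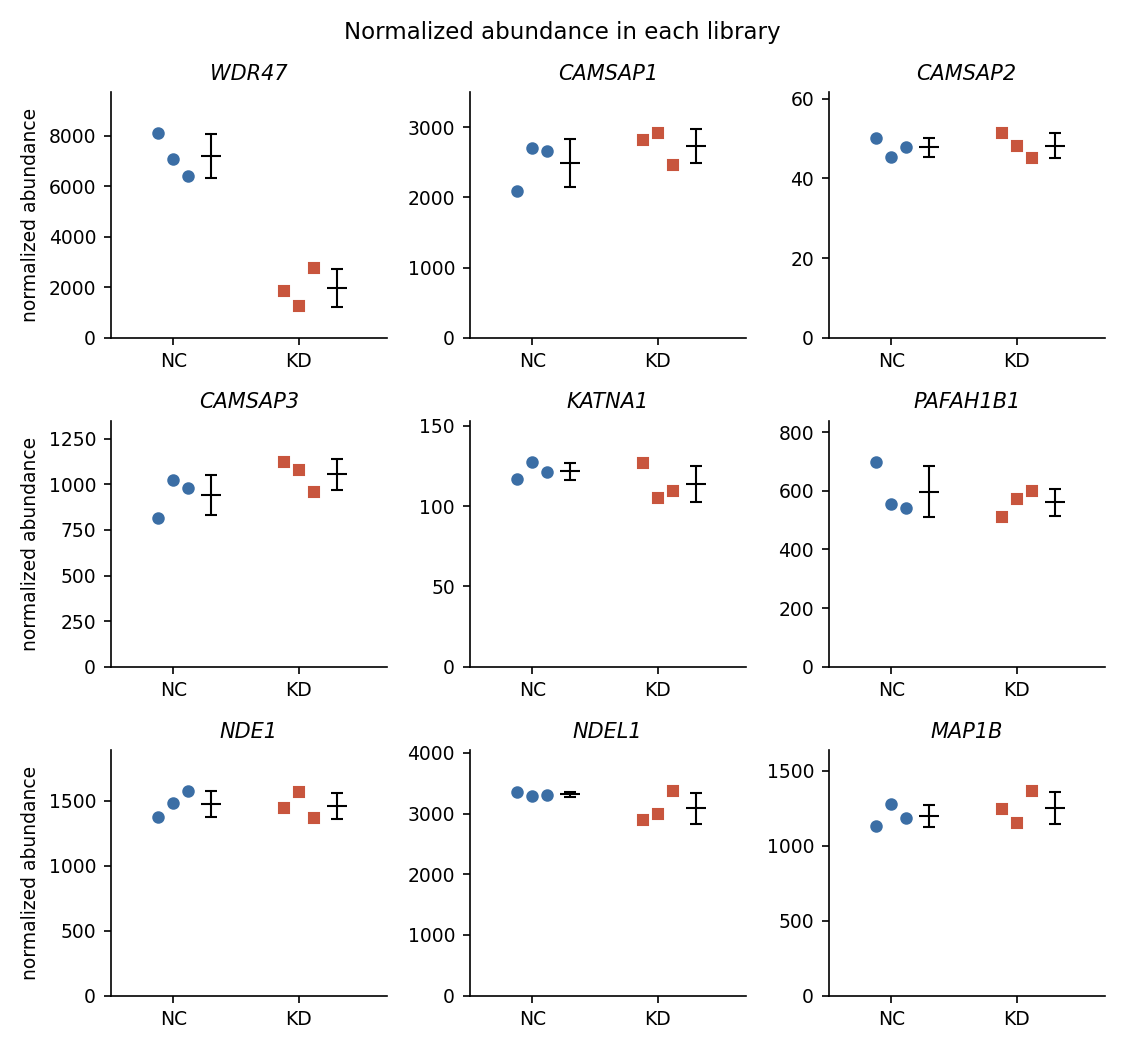
Normalized abundance (linear axes from 0) of WDR47 and its 8 partners in each NC (circles) and KD (squares) library, with the mean and SD of each group as bars beside the points, n = 3. WDR47 lies at 6393 to 8111 in NC and at 1261 to 2751 in KD, and in each of the 8 other panels the points of both groups overlap.

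The 8 partners showed no difference past the test. In the fit over all 11986 genes tested, 0 of 8 had an adjusted p below 0.05 by limma with Benjamini-Hochberg adjustment, and 0 of 8 had an unadjusted one below 0.05. Over all genes 0.159% were called at that adjusted p. The partners' adjusted p ranged from 0.997 to 0.999, and the log2 differences of KD minus NC ran from -0.11 to 0.17 around a median of -0.0032, beside a median of 0.0026 over all genes tested. Means were higher in KD for 4 partners and lower for 4. The NC and KD values overlapped in all 8, while over all genes 4.94% were lower in KD without overlap and 4.85% were higher without overlap. Exact two-sided permutation tests gave p from 0.3 to 0.9, where 3 against 3 allows no p below 0.1. A call missed at this sample size does not show equal levels, and the intervals below give what the data leave possible.

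The CAMSAP genes encode the minus-end binding proteins that WDR47 is known to bind. CAMSAP1 (ENSSSCG00000005753, on a scaffold not placed on a chromosome) stood at 2089, 2709 and 2655 in NC and at 2815, 2918 and 2454 in KD replicates 1 to 3. NC replicate 1 was its lowest library and KD replicate 2 its highest. The log2 difference was 0.14 (standard error 0.11, 95% confidence interval -0.09 to 0.37). CAMSAP3 (ENSSSCG00000013583, chr2:71531607-71547413, minus strand) stood at 817, 1024 and 979 in NC and at 1123, 1081 and 960 in KD. Again NC replicate 1 was lowest and KD replicate 1 high, with a log2 difference of 0.17 (standard error 0.11, 95% confidence interval -0.07 to 0.41). Both intervals reach further above 0 than below it.

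CAMSAP2 (ENSSSCG00000027314, chr10:23275302-23360167, plus strand) was the scarcest of the 9. Its values of 50.04, 45.31 and 47.99 in NC and 51.42, 48.14 and 45.04 in KD lay in nearly the same range. The log2 difference was 0.01 (standard error 0.25), and its interval of -0.52 to 0.54, or 69.6% to 146% of the NC level, was the widest of the partners. Its own libraries were close, with an SD on the log2 scale of 0.07 in NC and 0.09 in KD. The width thus reflects the variance that the fit assigns to genes of low abundance, not spread seen between these libraries. Of the summed abundance per kb of the 3 CAMSAP genes, CAMSAP1 held 61.4% to 62.9% in NC and 61.1% to 62.8% in KD libraries. CAMSAP3 held 36.1% to 37.3% in NC and 36.2% to 37.9% in KD, and CAMSAP2 held 0.950% to 1.34% in NC and 0.944% to 1.03% in KD. The makeup of the family thus differed by a few percentage points at most between any 2 libraries.

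KATNA1 encodes the catalytic subunit of katanin, the enzyme that severs microtubules. KATNA1 (ENSSSCG00000004104, chr1:16330854-16360801, plus strand) stood at 117, 127 and 121 in NC and at 127, 105 and 109 in KD. KD replicate 1 was close to the highest NC library and the other two were lower than any NC library. The log2 difference was -0.10 (standard error 0.18, 95% confidence interval -0.48 to 0.28).

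PAFAH1B1, the gene of LIS1 (ENSSSCG00000017836, chr12:48567329-48735836, plus strand) stood at 698, 553 and 540 in NC and at 510, 572 and 599 in KD. Apart from the high NC replicate 1 the libraries were interleaved, and the log2 difference was -0.09 (standard error 0.13, 95% confidence interval -0.35 to 0.18). NDE1 (ENSSSCG00000040479, chr3:7145094-7174691, minus strand) stood at 1375, 1480 and 1574 in NC and at 1443, 1562 and 1370 in KD. Its lowest and its highest library belonged to different groups, with a log2 difference of -0.02 (standard error 0.10, 95% confidence interval -0.22 to 0.19).

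NDEL1 (ENSSSCG00000017986, chr12:53553897-53640470, plus strand) is the paralog of NDE1 and the more abundant of the pair. It stood at 3356, 3283 and 3307 in NC, a coefficient of variation of 1.12%, and at 2887, 2998 and 3372 in KD. KD replicates 1 and 2 lay below every NC library and KD replicate 3 above them all, and the log2 difference was -0.11 (standard error 0.09, 95% confidence interval -0.29 to 0.08). In NC embryos 68.4% to 71.6% of the abundance per kb of NDE1 and NDEL1 together was NDEL1, and in KD embryos 66.4% to 71.7%. MAP1B (ENSSSCG00000016974, chr16:48403338-48501453, plus strand) stood at 1131, 1279 and 1182 in NC and at 1242, 1152 and 1364 in KD. Its log2 difference was 0.06 (standard error 0.10, 95% confidence interval -0.15 to 0.28). Pairs of related sequence such as NDE1 and NDEL1 or the CAMSAP genes may share ambiguous reads, which the quantification divides by estimate.

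**Figure D2:**
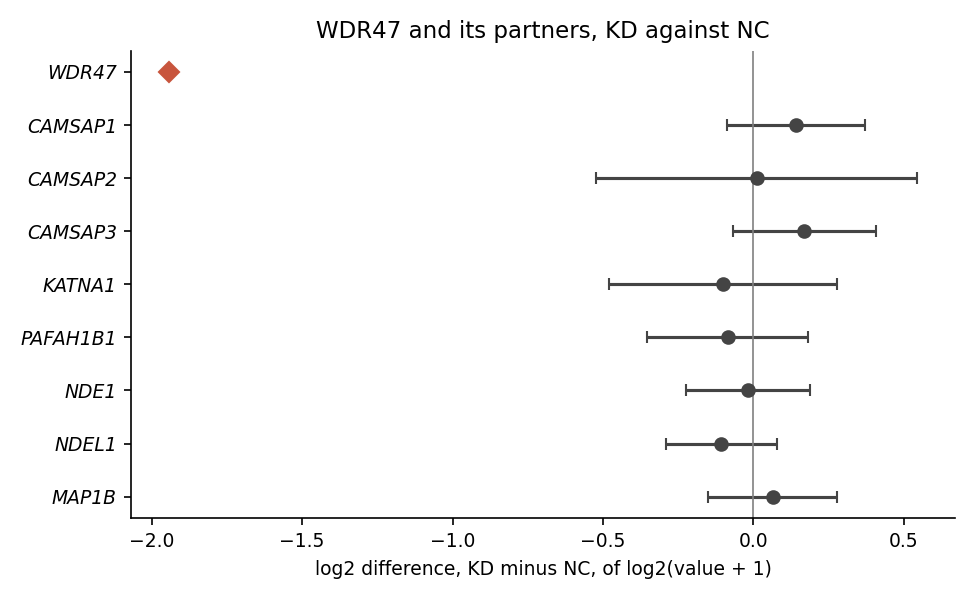
Log2 difference of KD minus NC on the log2(value + 1) scale for each gene, with 95% confidence intervals from limma as bars for the 8 partners and a diamond without interval for WDR47, whose values chose it. The partners lie between -0.11 and 0.17 with no interval below -0.52, and WDR47 lies at -1.94.

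The order of the 9 genes by level differed between NC and KD embryos. Per kb of mRNA, WDR47 was at 1498 ± 180 (SD, n = 3) in NC embryos, above NDEL1 at 1197 ± 13.4, NDE1 at 517 ± 35.0 and CAMSAP1 at 383 ± 53.0. Below them came CAMSAP3 at 226 ± 26.2, PAFAH1B1 at 101 ± 14.8, MAP1B at 96.9 ± 6.06, KATNA1 at 62.1 ± 2.70 and CAMSAP2 at 6.71 ± 0.333. Neighbours in this order had separate ranges over the 3 NC libraries, except PAFAH1B1 and MAP1B. As abundance was part of how WDR47 was chosen, its place at the top is a description.

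In KD embryos WDR47 was at 407 ± 156 per kb (SD, n = 3), below NDEL1 at 1114 ± 91.6. Its range of 262 to 573 now overlapped those of NDE1, at 480 to 547, CAMSAP1, at 379 to 450, and CAMSAP3, at 230 to 269. Within single libraries the level of WDR47 per kb was 3.25 to 5.24 times that of CAMSAP1 in NC and 0.583 to 1.51 times in KD. Against CAMSAP3 it was 5.67 to 8.62 times in NC and 1.01 to 2.49 times in KD. Against KATNA1 it was 21.6 to 28.3 times in NC and 4.89 to 10.3 times in KD. All of these ratios carry the lower WDR47 values in KD and are no further evidence of it. Lengths come from the longest RefSeq model, so they set the order only as far as that model is the mRNA present.

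**Figure D3:**
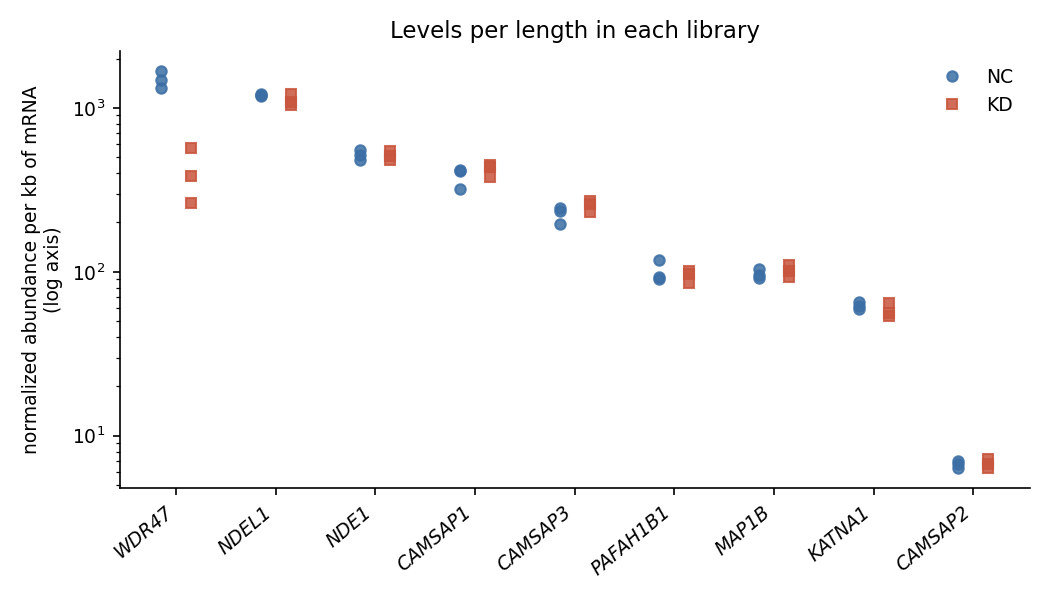
Normalized abundance per kb of the longest RefSeq mRNA (log axis) in each NC (circles) and KD (squares) library, with genes in the order of their NC mean. WDR47 leads at 1331 to 1689 in NC and lies at 262 to 573 in KD, within reach of NDE1, CAMSAP1 and CAMSAP3.

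The wider microtubule machinery and proteins chosen for LisH or CTLH domains were read from 6 lists. In these, 138 distinct genes were found and 132 tested, not all of them microtubule genes. The 8 partners are among the 132, so the counts over the lists are not separate from theirs. None was called by limma at an adjusted p of 0.05, where 0.159% of all genes were, and 5 (3.79%) had an unadjusted p below 0.05 against 4.61% of all genes. KD was lower without overlap in 5 of the 132 (3.79%, against 4.94% of all genes) and higher without overlap in 8 (6.06%, against 4.85%). The list of 16 minus-end and severing proteins, 4 of them members described above, had a median log2 difference of 0.03. SPAST, which encodes the severing enzyme spastin, was lowest of this list among genes with a mean of at least 100, at 2603 ± 176 in NC and 2201 ± 143 in KD (SD, n = 3 each), and its groups did not overlap. Its log2 difference of -0.24 (standard error 0.09) did not pass the adjustment, at an adjusted p of 0.964 by limma. MCRS1, a minus-end protein of spindle fibres, was highest at 0.30 (standard error 0.17), also without overlap.

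LIS1, dynein and dynactin genes numbered 37 tested of 39, with a median of -0.03 and 0 called. All 37 lay between -0.49 and 0.37. At a mean of at least 100, BICDL1, a dynein adaptor, was lowest at -0.38 (standard error 0.19), with overlap. DCTN1, the largest dynactin subunit, was highest at 0.32 (standard error 0.14), without overlap. The heavy chain gene DYNC1H1, named after its values were seen, was at 304 ± 32.0 in NC and 279 ± 14.6 in KD (SD, n = 3 each). Of 19 gamma-tubulin and augmin genes tested, which serve to nucleate microtubules, 0 were called and the median was -0.03, within a range of -0.32 to 0.38. At a mean of at least 100, TUBGCP5 lay lowest at -0.32 (standard error 0.14), without overlap, and TUBG2 highest at 0.15 (standard error 0.11).

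Proteins of the lattice and plus ends gave 0 calls in 29 tested and a median of 0.05, within a range of -0.38 to 0.32. At a mean of at least 100, STMN1, the tubulin-binding stathmin, was lowest at -0.14 (standard error 0.12), with overlap. CLASP1 was highest at 0.29 (standard error 0.15), without overlap. Tubulins and their chaperones gave 0 calls in 15 tested and a median of 0.05, within a range of -0.25 to 1.59. At a mean of at least 100, TBCA was lowest at -0.21 (standard error 0.20) and TUBB3 highest at 0.28 (standard error 0.18). The one point beyond 0.5 in the plot of the lists, TUBA8 at 1.59, was named after its values were seen and rests on means of 6.35 in NC and 19.0 in KD. TUBA8 was higher in KD without overlap. The list built around the LisH and CTLH domains of WDR47 gave 0 calls in 18 tested and a median of 0.01, within a range of -0.19 to 0.29. Its genes were not checked for these domains, so it may hold proteins without them. At a mean of at least 100, CEP20 was lowest at -0.19 (standard error 0.11) and TCOF1 highest at 0.28 (standard error 0.18). WDR26, which shares the LisH, CTLH and WD repeat layout of WDR47, was named after its values were seen and stood at 6911 ± 339 in NC and 6944 ± 79.3 in KD embryos (SD, n = 3 each). Its log2 difference was 0.01 (standard error 0.08).

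**Figure D4:**
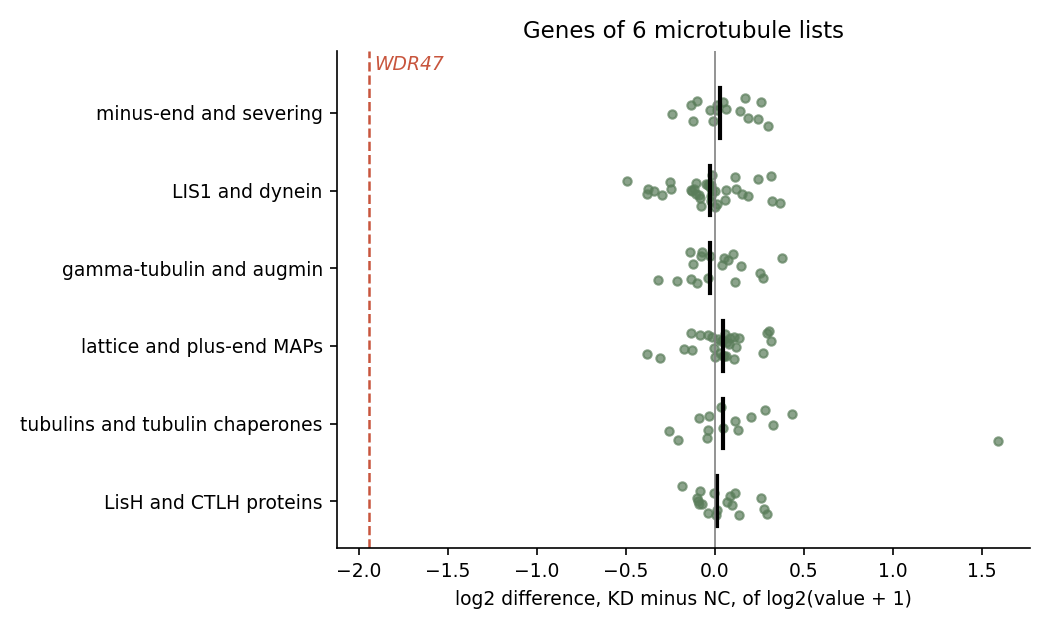
Log2 difference of KD minus NC on the log2(value + 1) scale for the tested genes of 6 lists (points, with a bar at each list's median) and for WDR47 (dashed line). The lists hold microtubule genes and, in the LisH and CTLH list, proteins chosen for their domains. The medians lie between -0.03 and 0.05, and the lowest point, DCTN6 at -0.49, lies above WDR47 at -1.94.

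The genes around WDR47 on the chromosome were chosen by position. RefSeq places 15 other genes within 250 kb, of which 12 were found in the table and 11 tested. By limma 0 of 11 were called, against 0.159% of all genes, with a lowest adjusted p of 0.855. The nearest on each side were CLCC1, a chloride channel gene 3.72 kb after the end of WDR47, and TAF13, a subunit of the general transcription factor TFIID, 14.4 kb before its start. CLCC1 stood at 3209, 2553 and 2894 in NC and at 2888, 2605 and 2660 in KD, a log2 difference of -0.08 (standard error 0.10). TAF13 stood at 333, 248 and 232 in NC and at 255, 242 and 287 in KD, a log2 difference of -0.04 (standard error 0.16). GPSM2, which encodes a partner of NuMA in spindle orientation, lies 24.0 kb away and had a log2 difference of 0.16 (standard error 0.25). Of the 11, 3 were lower in KD without overlap, where 4.94% of all genes were, namely SORT1 at -0.28, MYBPHL at -0.62 and STXBP3 at -0.11. SORT1 was the 1 neighbour of 11 with an unadjusted p below 0.05, and MYBPHL was at 24.6 or below in every library.

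**Figure D5:**
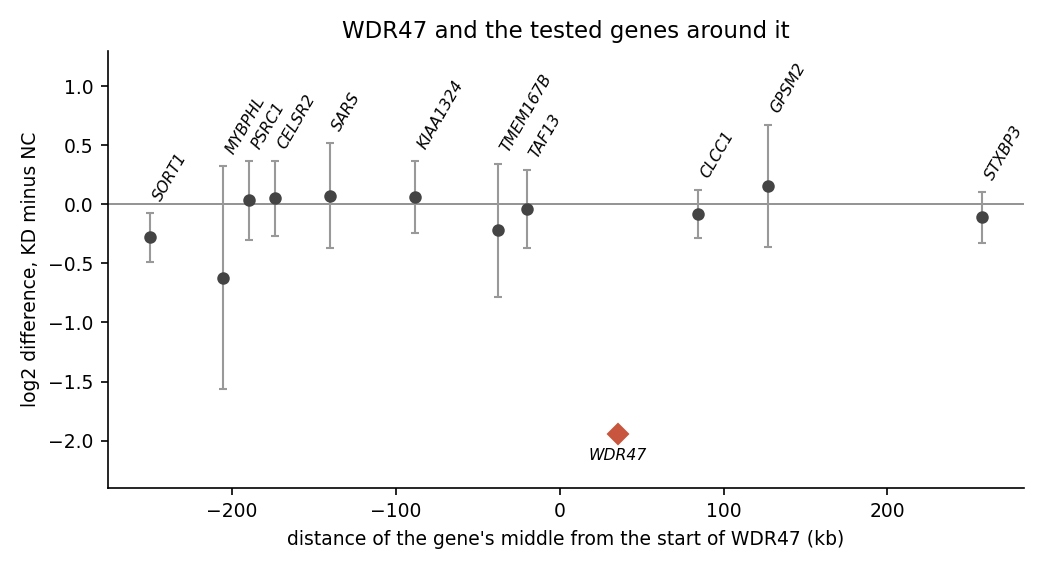
Log2 difference of KD minus NC for WDR47 (diamond) and the 11 tested genes within 250 kb (circles, with 95% confidence intervals from limma as bars), by the distance of the middle of each gene from the start of WDR47 in kb. The neighbours lie between -0.62 and 0.16, and WDR47 at -1.94.

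Among 10216 other named genes, the 5 whose values over the 6 libraries were most like those of WDR47, by Pearson correlation of log2(value + 1), were SPRTN at 0.992, SIN3A at 0.992, LETMD1 at 0.991, VGLL3 at 0.989 and KDELC2 at 0.987. CCNB1 came sixth in that order, at 0.986. The correlation is set mostly by the difference between groups, which all of these genes share, and 121 genes were above 0.9. In KD embryos SPRTN, a protease of DNA repair, averaged 57.7% of its NC mean, LETMD1 62.2%, VGLL3 67.8% and KDELC2 73.0%, so they were alike in pattern but not in size. The 8 partners had correlations with WDR47 from -0.70 for CAMSAP3 to 0.77 for NDEL1.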

How the data were processed

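Messenger RNA was measured in 6 libraries, 3 of NC and 3 of KD embryos, grouped by the sample labels. The authors quantified reads with Salmon 0.14.1 on transcripts of Sscrofa11.1 and deposited 1 normalized signal value per Ensembl gene, on the scale of DESeq2 size factors. The median ratio to the geometric mean was 1.01 in all 6 libraries. Between 23.5% and 52.0% of values under 20 reads lay within 0.02 reads of a whole number, and no count test was run because whole reads could not be recovered. Added GFP and RFP mRNA was not analysed here, so the total mRNA per embryo was not assessed.

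The 11986 genes whose mean reached 10 entered one fit with limma 3.58.1 (R 4.3.3) on log2(value + 1), with a variance trend and Benjamini-Hochberg adjustment over all of them. Fold changes on this scale understate changes of low genes. On simulated data 181 of 192 changed genes were called among 11994, with 7 unchanged ones. All changed 4-fold and 88.7% of those changed 2-fold were called. The simulation gave every gene the same dispersion in both groups, while WDR47 had a coefficient of variation of 12.0% in NC and 38.3% in KD. These shares therefore need not hold for genes that spread more. Exact permutation tests used scipy 1.17.1. A comparison of mRNA sequences and the values of 1 list gene are not reported here. Whether replicates came from separate batches of oocytes is not given in the labels. The limma p-values rest on the spread between these pools, drawn toward a variance trend over all genes tested. They do not measure each gene's own spread alone.

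Members, gene lists and tests were chosen with earlier results of these data known. Named are all 9 members, and from each list the called genes, or else the largest fall and rise at a mean of at least 100. SIN3A, CCNB1 and the 5 named genes most like WDR47 were added, as were neighbours by position. CNOT6 was named as the gene after WDR47 in the order of differences among genes with an NC mean of at least 1000. Of the entries of the gene and marker lists, 15 were matched by Ensembl identifier, and MZT2B, PCNT, HAUS3, MAP7D3, CLIP2, TACC1, TACC3, TUBA1A, TUBA1C, TUBA3E, TUBB2A, TBCEL, TBL1X, OFD1, DPPA3, NLRP5, TLE6, FSHR and HSD3B1 were not matched. Positions and lengths come from RefSeq on Sscrofa11.1. Alternatives were other pseudocounts, filters, scalings and variance models, a block for the replicate number, and the removal of each library in turn. The NC libraries left out for the level per kb, the median mRNA length and the pseudocounts of the permutation tests were chosen after seeing the data.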

Additional observations from a re-analysis of the deposited data

How the results depend on the processing

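The log2 difference of WDR47 was -1.94, from -1.96 to -1.94 under other pseudocounts, filters, scalings and variance models, and from -2.23 to -1.66 over the removals of single libraries. Of 119 refits of single partners, 114 kept the direction and no partner was called, with a lowest adjusted p of 0.817 by limma. The 5 others reversed direction when a library was left out, with ranges of -0.035 to 0.058 for CAMSAP2, -0.069 to 0.030 for NDE1 and -0.15 to 0.032 for PAFAH1B1. CAMSAP2 was not tested at a mean of at least 100. No gene of the 6 lists was called in any of these settings. Over all genes 19 were called. Without the variance trend 0 were, with 622 at an unadjusted p below 0.05, and 0 passed both the adjusted p and an absolute log2 difference of 0.8, which 15 passed otherwise. With one library left out the calls numbered 11 to 19, being 11 without KD replicate 2 and 12 without NC replicate 2 or NC replicate 3. The cause was not tested. A replicate block brought the calls to 26, with 0 partners among them and 17 past both thresholds. After group means were subtracted, same-numbered libraries correlated at 0.109, 0.111 and 0.087, not all above 0.1, although every library correlated best with its own number. The mean was 0.10 for the same number and -0.05 for different numbers. By the cutoff of 0.1 the numbers were not taken as pairs, which does not show that the replicates were unpaired. The level of WDR47 per kb in NC was 1498, and 1402 to 1581 without one NC library. CAMSAP2 and KATNA1 had the fewest estimated reads of the partners, and their wide intervals follow the variance trend more than their own spread.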
